A study of Bos taurus with 48 samples.

Results

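Blood vessel genes were followed in the bovine endometrium, 10 in all: VEGFA, KDR, FLT1, ANGPT1, ANGPT2, TEK, PECAM1, VWF, CDH5 and ENG. A probe carried the symbol of 8 of these 10 genes in the array annotation, and these 8 are the genes counted below. VEGFA was found under its older name VEGF through its accession, and FLT1 only through the description of a probe, so both are given beside the 8. Each gene has 1 probe, printed as 2 spots, among 21475 probes on the array.

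Samples came from 22 lactating Holstein-Friesian dairy cows of mixed New Zealand and North American ancestry, whose oestrous cycles had all been synchronised and who were slaughtered on day 17 of the reproductive cycle. The 12 pregnant cows had received a grade 1 blastocyst on day 7, and the 10 cyclic cows had received none. Caruncular endometrium, the aglandular knobs where the placenta will attach, and intercaruncular endometrium, the glandular tissue between them, were sampled from every cow, which gives 44 samples. The labels class the embryos of 7 pregnant cows as large (over 20 cm and 75 mg) and those of 5 as small (under 20 cm and 40 mg), and class 6 pregnant cows as fertile and 6 as sub-fertile. Among the large class 3 cows were fertile and 4 sub-fertile, and among the small class 3 were fertile and 2 sub-fertile. How the fertility class was set, and the age of the cows, are not given in the sources used here.

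Vascular endothelial growth factor A (VEGFA) is the main growth signal for endothelial cells, the cells that line blood vessels. It binds the receptors KDR, which carries most of the growth signal, and FLT1, which holds the ligand back from KDR. The angiopoietins act through the receptor TEK, where ANGPT1 steadies vessels and ANGPT2 loosens them in many settings. PECAM1 and CDH5 are adhesion molecules of the junctions between endothelial cells, VWF is the clotting factor stored in these cells, and ENG is a co-receptor for ligands of the TGF-beta family. PECAM1 is also carried by platelets and leukocytes. Vessels of the endometrium are remodelled in each cycle and before implantation.

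Every value is a log2 ratio of the sample (Cy5) to a pool of all samples (Cy3) on the same 2-colour array, less the median of the array, so 0 is the level of the pool and a value of 1 is a doubling. The 48 arrays had 68.8% to 84.0% of spots well above background, and the 4 caruncular samples hybridised again were averaged with their first array. The difference between the 2 arrays of such a sample had an SD of 0.10 to 0.15 over the tested probes. A change was called at a Benjamini-Hochberg adjusted p under 0.05 by limma over 14690 tested probes, and all adjusted p-values below come from that test. The 12 slides mostly hold 1 tissue and 1 state, so that slide and group can be told apart only in part. Slides 2 and 8 each hold 3 pregnant cows and 1 cyclic cow, the same on both. Slide 11 holds both tissues of a pregnant cow (large embryo, sub-fertile) and slide 12 both tissues of a cyclic cow, beside the 4 repeat arrays, and these 2 cows often stood apart from their groups. Without them the members called in the pregnancy comparisons were 4 in caruncular and 4 in intercaruncular tissue, against 3 and 4 with them, while the share of all tested probes called was 30.9% and 24.8%, against 26.9% and 20.3%.

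The probes of 9 genes were well above background in both spots on all 48 arrays, and none was saturated. Their median sample signal ran from 267.1 units for ANGPT1 to 10086.3 units for ENG, and signals of different probes are not levels that can be compared. FLT1 was different. No spot of its probe was well above background on 30 of 48 arrays, and only 2 of 44 samples passed the filter on signal, so no change is given for it. At least 1 spot was well above background in 7 of 10 cyclic and 4 of 12 pregnant cows in caruncular tissue, and in 2 of 10 cyclic and 3 of 12 pregnant cows in intercaruncular tissue.

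**Figure D1:**
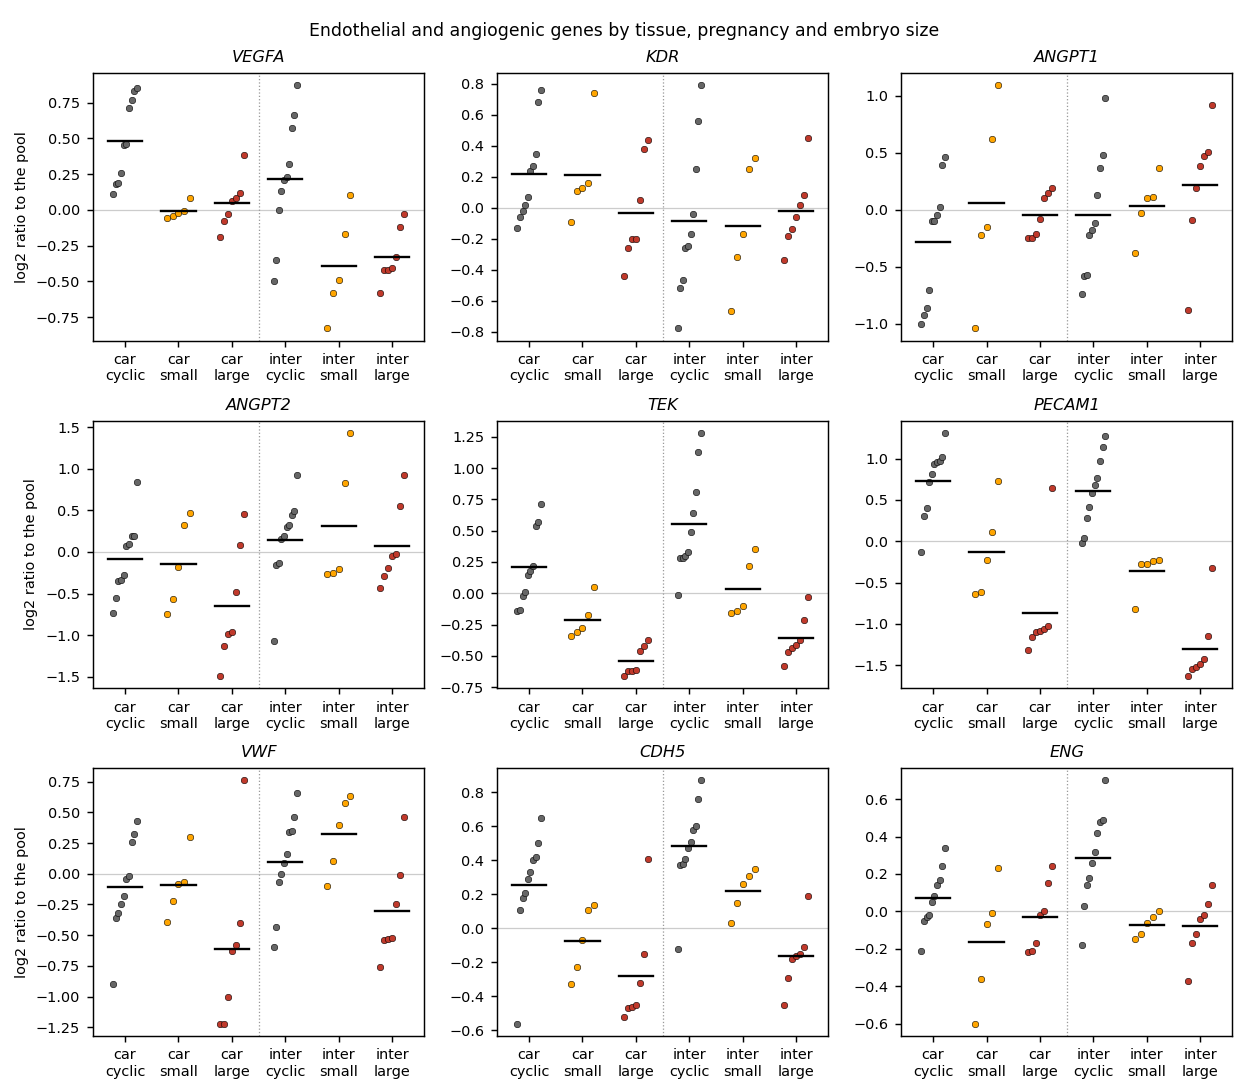
Log2 ratio to the pool (y axis) of the 9 measured genes in each sample, by tissue (car, caruncular; inter, intercaruncular) and by cyclic cows, pregnant cows with a small embryo and pregnant cows with a large embryo; each point is 1 cow and the line is the group mean. PECAM1 is lowest with large embryos in both tissues, apart from 1 cow at 0.64 in caruncular and at -0.32 in intercaruncular tissue.

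The first question was how the vascular genes differ between pregnant and cyclic cows. In caruncular endometrium 3 of the 8 genes were lower in pregnant cows (TEK, PECAM1 and CDH5) and none was higher. In intercaruncular endometrium 4 of 8 were lower (the same 3 and ENG) and again none was higher. Over all tested probes 15.4% were called lower and 11.4% higher in caruncular tissue, and in intercaruncular tissue 11.1% lower and 9.24% higher. The median change of the 8 genes was -0.32 and -0.25 on the log2 scale, against -0.04 and -0.01 over all tested probes. The genes were chosen with earlier results of these data known, so these comparisons are descriptions. VEGFA was also called lower in both tissues. In whole tissue, fewer endothelial cells and less RNA of these genes per cell cannot be told apart.

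Of the ligands, VEGFA ran in caruncular tissue from 0.11 through a median of 0.46 to 0.85 in the 10 cyclic cows and from -0.19 through -0.01 to 0.38 in the 12 pregnant cows. All 12 pregnant cows lay below the mean of the cyclic cows and 10 lay below the lowest of them. Its change was -0.46 (SE 0.10, adjusted p = 0.0013), a 1.37-fold lower level. In intercaruncular tissue the change was -0.57 (SE 0.14, adjusted p = 0.0077), with pregnant cows between -0.83 and 0.10 and cyclic cows between -0.50 and 0.87, so the groups overlapped more. On slide 2, the 3 pregnant cows averaged 0.24 more than the cyclic cow there, the opposite direction, and the intercaruncular call was lost once slide was a random block (adjusted p = 0.178).

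The 2 angiopoietins were not called. ANGPT1 differed by 0.28 (SE 0.22, adjusted p = 0.35) in caruncular and by 0.19 (SE 0.20, adjusted p = 0.55) in intercaruncular tissue. ANGPT2 differed by -0.35 (SE 0.24, adjusted p = 0.28) and by 0.02 (SE 0.23, adjusted p = 0.96). Both varied widely within groups. Caruncular ANGPT1 ran from -1.0 to 0.46 in cyclic and from -1.04 to 1.09 in pregnant cows, and caruncular ANGPT2 from -0.73 to 0.84 and from -1.49 to 0.47.

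Of the receptors, TEK fell in both tissues. In caruncular tissue it ran from -0.14 through 0.17 to 0.71 in cyclic cows and from -0.66 through -0.39 to 0.05 in pregnant cows, and 11 of 12 pregnant cows lay below every cyclic cow. The change was -0.61 (SE 0.11, adjusted p = 0.00032), or 1.53-fold. In intercaruncular tissue TEK ran from -0.01 through 0.41 to 1.28 in cyclic and from -0.58 through -0.19 to 0.35 in pregnant cows, and the change was -0.75 (SE 0.14, adjusted p = 0.00098), or 1.68-fold. There 10 of 12 pregnant cows lay below every cyclic cow. KDR, the main VEGF receptor, was not called, with differences of -0.15 (SE 0.13, adjusted p = 0.42) and 0.03 (SE 0.17, adjusted p = 0.93). Its groups overlapped over most of their range, from -0.13 to 0.76 in cyclic and from -0.44 to 0.74 in pregnant cows in caruncular tissue.

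The co-receptor ENG differed by -0.16 (SE 0.09, adjusted p = 0.21) in caruncular tissue and fell by 0.36 (SE 0.09, adjusted p = 0.0059) in intercaruncular tissue. Intercaruncular ENG ran from -0.18 through 0.29 to 0.70 in cyclic cows and from -0.37 through -0.05 to 0.14 in pregnant cows. All 12 pregnant cows lay below the cyclic mean, but only 1 below the lowest cyclic cow, which was the cow of slide 12. The difference of its change between the tissues, 0.20 (SE 0.11, adjusted p = 0.35), was not called.

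PECAM1 had the largest change of the 9 genes. In caruncular tissue it ran from -0.13 through 0.87 to 1.31 in cyclic cows and from -1.32 through -0.83 to 0.73 in pregnant cows. Of the 12 pregnant cows 9 lay below every cyclic cow, while 3 lay among the cyclic cows, at 0.11, 0.64 (the pregnant cow of slide 11) and 0.73. The change was -1.29 (SE 0.25, adjusted p = 0.00057), a 2.44-fold lower level. In intercaruncular tissue the groups did not overlap, with cyclic cows from -0.02 through 0.63 to 1.27 and pregnant cows from -1.63 through -0.98 to -0.23. The change there was -1.52 (SE 0.22, adjusted p = 4.9e-05), or 2.87-fold. How many of all tested probes separate these groups as well was not counted, so no conclusion is drawn from the lack of overlap.

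CDH5, the cadherin of endothelial junctions, fell by 0.45 (SE 0.13, adjusted p = 0.013) in caruncular and by 0.49 (SE 0.11, adjusted p = 0.004) in intercaruncular tissue. In caruncular tissue the cyclic cow of slide 12, at -0.56, lay below all 12 pregnant cows, while the other cyclic cows lay between 0.11 and 0.65. Pregnant cows ran from -0.52 through -0.27 to 0.41, and the highest was the cow of slide 11. Without these 2 cows the caruncular change of CDH5 was -0.59 (SE 0.09, adjusted p = 9.87e-05).

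VWF was not called with all cows, at -0.29 (SE 0.21, adjusted p = 0.31) in caruncular and -0.14 (SE 0.18, adjusted p = 0.62) in intercaruncular tissue. Caruncular values ran from -0.90 through -0.11 to 0.43 in cyclic cows, the lowest being the cow of slide 12, and from -1.22 through -0.39 to 0.76 in pregnant cows, the highest being the cow of slide 11. Without both cows the caruncular change was -0.48 (SE 0.18, adjusted p = 0.0441), which is a call that rests on leaving them out.

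Of the 8 genes, TEK and PECAM1 also passed the further limit of 1.5-fold in both tissues. Over all tested probes 4.21% were lower by that rule in caruncular and 3.25% in intercaruncular tissue.

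**Figure D2:**
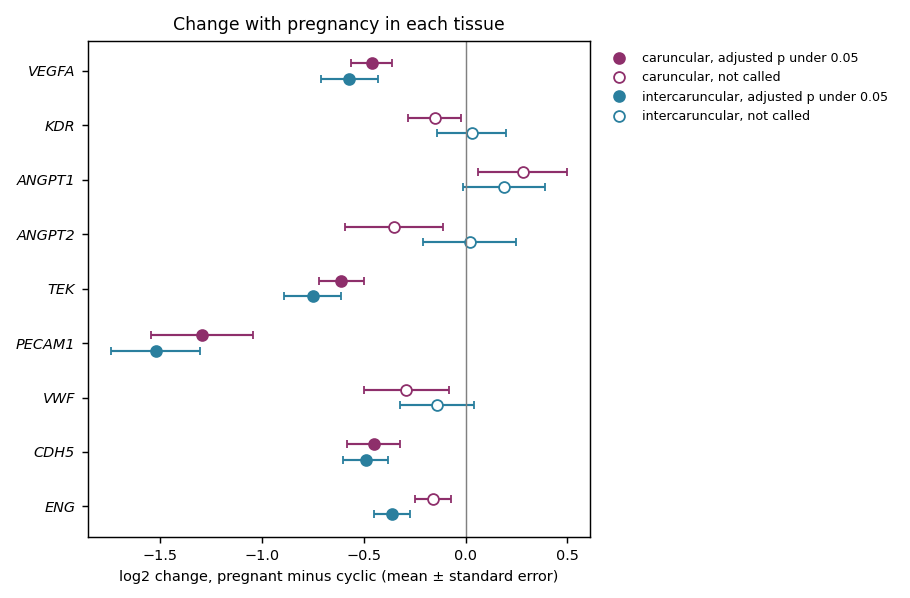
Mean log2 change (x axis, pregnant minus cyclic, 12 and 10 cows) with its SE for each gene in caruncular and intercaruncular tissue; filled points have an adjusted p under 0.05. All filled points lie below 0, and PECAM1 lies farthest left at -1.29 and -1.52.

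The slide limits these changes. With the slide as a random block TEK (adjusted p = 0.00258 and 0.0147) and PECAM1 (adjusted p = 0.00716 and 0.00154) were called in both tissues, while CDH5 (-0.39, adjusted p = 0.0794, and -0.44, adjusted p = 0.0524) and intercaruncular ENG (-0.30, adjusted p = 0.0962) were not. Of all tested probes 15.5% and 6.95% were called in that fit. With the slide as a fixed block, which compares 3 pregnant cows with the cyclic cow there, none of the 8 was called. That fit called 0.395% and 0.871% of all tested probes, so a count of 0 says little about these genes. The direction on the shared slides was the same for PECAM1, CDH5 and TEK. On slide 8 (caruncular) the 3 pregnant cows averaged 1.47 lower than the cyclic cow for PECAM1 (-0.49 against 0.97), with TEK differing by -0.95 and CDH5 by -0.45. On slide 2 (intercaruncular) the differences were -1.91, -1.0 and -0.52, and for each of these genes every pregnant cow on the slide lay below the cyclic cow.

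Some markers of other cells were called with pregnancy too, and their part in the changes was not tested. The counts in this and the next paragraph stand beside 26.9% of all tested probes called in either direction in caruncular and 20.3% in intercaruncular tissue. Those under the random slide block stand beside 15.5% and 6.95%. Of 7 tested smooth muscle genes 5 were lower in pregnant cows in each tissue (4 in each under the random slide block), with a list median of -0.88 and -0.80, among them the smooth muscle actin ACTA2 (-1.48 and -1.38). The mean log2 ratio of the smooth muscle list ran in caruncular samples from -0.34 to 1.03 in cyclic and from -1.23 to 0.48 in pregnant cows, and in intercaruncular samples from -0.91 to 0.78 and from -1.48 to 0.14. Of 6 tested pericyte genes 1 was higher and 1 lower in caruncular tissue, and 1 higher and 2 lower in intercaruncular tissue. RGS5 was lower in both (-0.76 and -0.66) and KCNJ8 higher in both (0.5 and 0.58). The mean of the pericyte list ran from -0.33 to 0.58 in cyclic and from -0.24 to 0.42 in pregnant cows in caruncular tissue, and from -0.32 to 0.54 and from -0.34 to 0.26 in intercaruncular tissue.

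The genes of leukocytes and platelets, the other carriers of PECAM1, were read as a list, and the part of these cells was not tested. Of 10 tested genes 4 were higher in caruncular and 3 in intercaruncular tissue, with none lower (2 and 0 higher under the random slide block), and the macrophage receptor CSF1R was higher by 0.73 and 0.61. The mean of this list ran from -0.59 to 0.09 in cyclic and from -0.20 to 0.56 in pregnant cows in caruncular tissue, and from -0.29 to 0.21 and from -0.28 to 0.57 in intercaruncular tissue. The platelet chemokines PF4 and PPBP did not pass the filter in any of the 44 samples, and the platelet gene ITGA2B was not called (0.13 and -0.04). Of the red cell genes on the array 1 of 4 passed the filter and was not called, and of the conceptus genes 1 of 11 passed and was not called. Of 8 stroma genes 1 was higher and 1 lower in caruncular and 1 higher and 3 lower in intercaruncular tissue, and of 9 epithelium genes 2 were higher and 2 lower in caruncular and 3 higher in intercaruncular tissue.

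The second question was whether these genes differ between the tissues. Within each cow, the intercaruncular value was subtracted from the caruncular value, so that each cow is its own block. In cyclic cows KDR was higher in caruncular tissue and TEK, CDH5 and ENG were lower, 4 of the 8 genes. In pregnant cows PECAM1 was higher and TEK, CDH5, ANGPT2 and VWF were lower, 5 of the 8. Over both directions these shares are close to those of all probes, of which 26.8% were higher and 28.6% lower in cyclic cows, and 29.7% higher and 33.0% lower in pregnant cows. With the samples as separate replicates, without the cow, 1 of the 8 was called in each state. That fit called 36.0% of all tested probes in cyclic and 46.5% in pregnant cows.

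CDH5 was lower in caruncular tissue in 10 of 10 cyclic cows, by between 0.05 and 0.47, with a mean of -0.23 (SE 0.06, adjusted p = 0.0029). In pregnant cows it was lower in 10 of 12, with a mean of -0.19 (SE 0.06, adjusted p = 0.0049). TEK was lower in 9 of 10 cyclic cows (mean -0.34, SE 0.08, adjusted p = 0.0011) and in 11 of 12 pregnant cows (mean -0.21, SE 0.07, adjusted p = 0.018). These 2 genes were the ones among the 8 called in both states.

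ANGPT2, the angiopoietin that antagonises TEK in many settings, was lower in caruncular tissue in 11 of 12 pregnant cows, by a mean of -0.60 (SE 0.11, adjusted p = 3.7e-05) and a range of -1.29 to 0.07. In cyclic cows it was lower in 8 of 10, by a mean of -0.23 (SE 0.12, adjusted p = 0.09). The difference between the states was -0.37 (SE 0.16, adjusted p = 0.22), which was not called. VWF was lower in 9 of 12 pregnant cows (mean -0.35, SE 0.12, adjusted p = 0.015).

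PECAM1 was higher in caruncular tissue in 11 of 12 pregnant cows, by a mean of 0.35 (SE 0.09, adjusted p = 0.0025), with 1 cow at -0.34 and 2 cows at 0.96. KDR was higher in 9 of 10 cyclic cows, by 0.31 (SE 0.09, adjusted p = 0.0065). VEGFA was higher in 9 of 10 cyclic cows, by 0.27 (SE 0.09, adjusted p = 0.013), and in 10 of 12 pregnant cows, by 0.38 (SE 0.08, adjusted p = 0.00027). ENG was lower in 8 of 10 cyclic cows, by a mean of -0.21 (SE 0.08, adjusted p = 0.03).

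**Figure D3:**
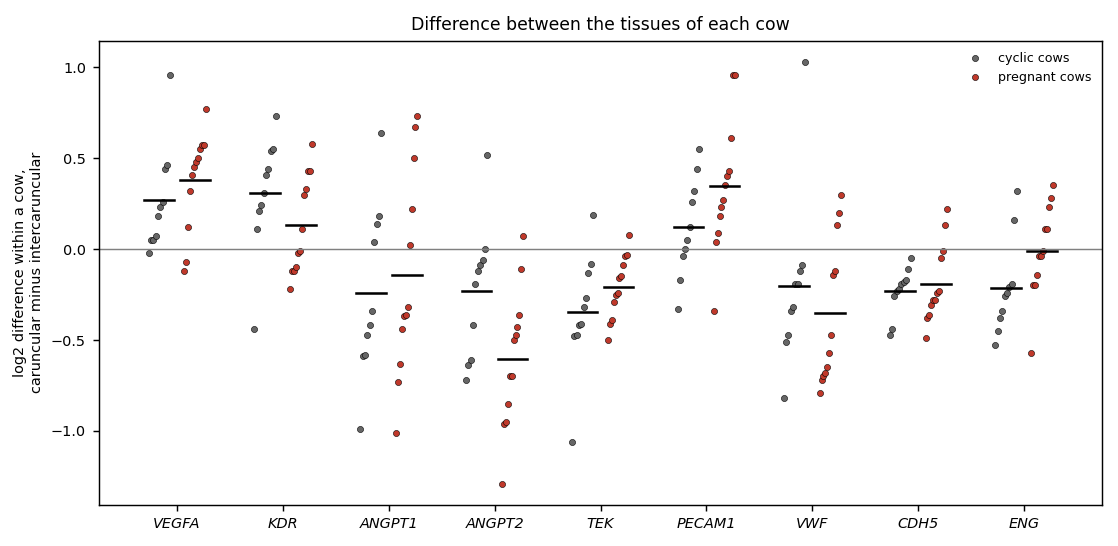
Log2 difference between the 2 tissues of each cow (y axis, caruncular minus intercaruncular) for the 9 genes in 10 cyclic and 12 pregnant cows; each point is 1 cow and the line is the mean. All 10 cyclic cows lie below 0 for CDH5, and 11 of 12 pregnant cows lie below 0 for ANGPT2.

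Tissue and slide cannot be told apart except in the 2 cows whose tissues share a slide. The same holds for the scan date. In all other cows the intercaruncular arrays were scanned on a single date and the first caruncular arrays on another, which the comparison within a cow does not remove. In the cyclic cow of slide 12 the differences of TEK (-0.47) and CDH5 (-0.44) had the direction of the cyclic mean, and those of KDR (-0.44) and ENG (0.16) the opposite one. In the pregnant cow of slide 11 PECAM1 (0.96) and ANGPT2 (-0.11) had the direction of the pregnant mean, and TEK (0.08), CDH5 (0.22), VWF (0.30) and VEGFA (-0.07) the opposite one. Without both cows the same number of the 8 genes was called in each state, beside 57.9% of all tested probes in cyclic and 64.9% in pregnant cows. The cell makeup of the tissues differed as well, and its part was not tested: stroma genes were higher in caruncular tissue in 7 of 8 in cyclic and 8 of 8 in pregnant cows, and epithelium genes were lower in 6 of 9 and 7 of 9.

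Whether the pregnancy change differs between the tissues was tested on the within-cow differences. None of the 8 genes was called by limma, and 1.02% of all tested probes were called. At an unadjusted p under 0.05 stood 1 of the 8 (ANGPT2) and 17.3% of all tested probes. The estimates ran from -0.37 for ANGPT2 to 0.23 for PECAM1 (SE 0.14, adjusted p = 0.41).

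The third question was whether the genes vary with the size of the embryo among pregnant cows. In intercaruncular tissue PECAM1 was lower with large embryos, 1 of the 8 genes, where 2.12% of all tested probes were lower. In caruncular tissue none of the 8 was called by limma, and 0% of all probes were called. At an unadjusted p under 0.05 stood 2 of the 8 there (PECAM1 and TEK) and 6.90% of all tested probes. The median change of the 8 genes was -0.31 in intercaruncular and -0.29 in caruncular tissue, against -0.01 and 0.01 over all tested probes.

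Intercaruncular PECAM1 was -0.82, -0.27, -0.27, -0.24 and -0.23 in the 5 cows with a small embryo and ran from -1.63 through -1.49 to -0.32 in the 7 cows with a large embryo. The cow of slide 11, at -0.32, was the only cow of the large class among those of the small class, and the next was at -1.15. The difference was -0.93 (SE 0.21, adjusted p = 0.038), or 1.91-fold. Without the cow of slide 11 it was -1.10 (SE 0.12, adjusted p = 0.00121), and CDH5 and VWF were then called too, so that 3 of the 8 were called, while the share of all tested probes called in either direction went from 3.69% to 12.8%. The call is a narrow one, since it was kept in 2 of 12 fits that left out 1 cow, with adjusted p between 0.00121 and 0.103 and differences between -1.10 and -0.88.

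The size classes could be compared on the same slide, and on each of these slides every cow with a large embryo had less PECAM1 than every cow with a small one. Slides 1 and 7 hold the same cows, as do slides 2 and 8 and slides 5 and 6, so the 2 tissues are not separate evidence. On each slide, 1 of the size classes is a single cow. In intercaruncular tissue the differences were -1.29 on slide 1, -1.06 on slide 2 and -0.73 on slide 5. In caruncular tissue they were -0.43 on slide 6, -1.08 on slide 7 and -1.84 on slide 8. With the slide as a fixed block the intercaruncular difference was -1.03 (SE 0.11, adjusted p = 0.0044), and CDH5 (-0.42, adjusted p = 0.0396) and VWF (-0.79, adjusted p = 0.0436) were called as well, with 7.39% of all tested probes. The cow of slide 11 is the only intercaruncular sample of a pregnant cow on its slide, and so adds nothing to that difference.

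**Figure D4:**
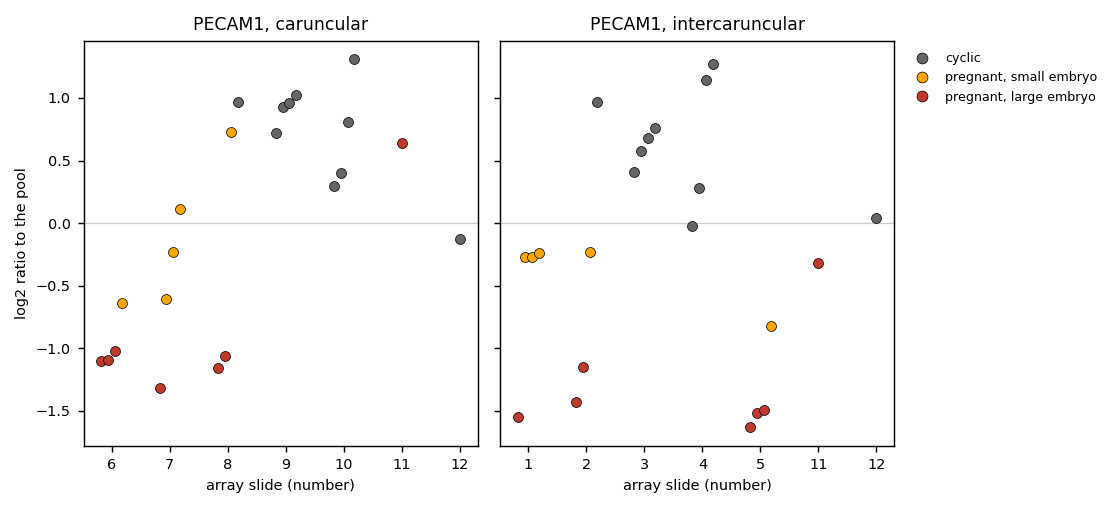
Log2 ratio of PECAM1 (y axis) in each sample by array slide (x axis, slides numbered 1 to 12) in both tissues; each point is 1 cow, coloured as cyclic, pregnant with a small embryo or pregnant with a large embryo. On slides 1, 2, 5, 6, 7 and 8, which hold both size classes, each large-embryo point lies below each small-embryo point, and on slides 2 and 8 the cyclic cow lies above the pregnant cows. Slides 1 and 7, 2 and 8, and 5 and 6 hold the same cows.

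In caruncular tissue PECAM1 was -0.64, -0.61, -0.23, 0.11 and 0.73 with small embryos and ran from -1.32 through -1.09 to 0.64 with large embryos, again with the cow of slide 11 at the top and the next at -1.02. The difference of -0.74 (SE 0.34, adjusted p = 0.72) was not called, and without the cow of slide 11 it was -1.0 (SE 0.22, adjusted p = 0.141). TEK was -0.34, -0.31, -0.28, -0.17 and 0.05 with small and ran from -0.66 through -0.61 to -0.37 with large embryos. The difference of -0.33 (SE 0.09, adjusted p = 0.61) was not called. The classes did not overlap for TEK, but how many of all tested probes separate them as well was not counted, so no conclusion is drawn from it.

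CDH5 and VWF leaned the same way without being called with all cows. Intercaruncular CDH5 was 0.03, 0.15, 0.26, 0.31 and 0.35 with small and from -0.45 through -0.16 to 0.19 with large embryos, a difference of -0.38 (SE 0.11, adjusted p = 0.064). Intercaruncular VWF was -0.10, 0.10, 0.40, 0.58 and 0.63 with small and from -0.76 through -0.52 to 0.46 with large embryos, a difference of -0.63 (SE 0.21, adjusted p = 0.10). In both genes the cow of slide 11 was the highest of the large class. Intercaruncular TEK differed by -0.39 (SE 0.12, adjusted p = 0.093). The other genes were not called either. ANGPT2 differed by -0.51 (SE 0.34) in caruncular and -0.23 (SE 0.33) in intercaruncular tissue. ANGPT1 differed by -0.11 and 0.18 (SE 0.29 and 0.25), VEGFA by 0.06 in each tissue (SE 0.09 and 0.15), KDR by -0.24 and 0.10 (SE 0.18 in each), and ENG by 0.13 and -0.01 (SE 0.14 and 0.09). Smooth muscle genes had a list median of -0.55 between the size classes in intercaruncular tissue, with 0 of 7 called, and leukocyte genes one of 0.20, with 0 of 10 called; their part was not tested.

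The fourth question was the fertility class. None of the 8 genes was called by limma in either tissue, and 0% of all probes were called in caruncular and 0.0477% in intercaruncular tissue. At an unadjusted p under 0.05 stood 2 of the 8 in each tissue (KDR and ANGPT2) and 13.8% and 13.6% of all tested probes. ANGPT2 was lower in fertile cows by 0.77 (SE 0.29, adjusted p = 0.31) in caruncular and by 0.75 (SE 0.26, adjusted p = 0.26) in intercaruncular tissue. Caruncular ANGPT2 ran from -1.49 through -0.85 to -0.18 in fertile and from -1.13 through 0.20 to 0.47 in sub-fertile cows, and all 6 fertile cows lay below the mean of the sub-fertile cows, though the classes overlapped. KDR differed by -0.36 (SE 0.16, adjusted p = 0.35) and -0.43 (SE 0.13, adjusted p = 0.21). In each tissue 1 slide held both fertility classes, with 2 cows of each, and within it ANGPT2 differed by -0.04 in caruncular and -0.73 in intercaruncular tissue (SE 0.47 and 0.51) and KDR by 0.20 and -0.30 (SE 0.23 in each). PECAM1 differed by -0.44 (SE 0.37, adjusted p = 0.61) and -0.18 (SE 0.33, adjusted p = 0.83).

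Within each tissue and state, the junction genes and VWF varied together from cow to cow. After subtracting the mean of each tissue and state, VWF and CDH5 had a Pearson r of 0.83 (Spearman rho 0.83) over the 44 samples, PECAM1 and CDH5 one of 0.78 (rho 0.78) and PECAM1 and VWF one of 0.74 (rho 0.71). Without the cows of slides 11 and 12 the 3 values of r were 0.79, 0.74 and 0.66. KDR went with ANGPT2 (r 0.67, rho 0.76). The means of the size and fertility classes were not subtracted, so differences between these classes are part of the values of r. These are descriptions over samples that share cows, slides and the reference pool, so no p is given.

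The genes most like each member over the same 44 samples, as the 3 symbols with the highest r, were for PECAM1 CD93 (0.84), TIE1 (0.82) and CDH13 (0.81), for VWF CDH5 (0.83), TIE1 (0.81) and RASIP1 (0.81), and for CDH5 CD34 (0.86), JAG2 (0.85) and VWF (0.83). For ANGPT2 they were ROBO4 (0.80), TNFRSF11B (0.78) and ADGRL4 (0.77), and for TEK CTBP2 (0.77), THBD (0.74) and CTNNAL1 (0.74). For VEGFA they were CDH17 (0.76), PAK6 (0.69) and HOMER2 (0.69), for KDR ABCG2 (0.76), CBR4 (0.72) and PYGB (0.69), for ANGPT1 SPPL2A (0.69), EPB41L1 (0.68) and CEP89 (0.66), and for ENG HSPB2 (0.70), TLN1 (0.68) and NUCB1 (0.68). CD93, TIE1, CD34, ROBO4 and RASIP1 are known from endothelial cells.

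The wider pathway was read from 8 lists with 107 tested genes. The lists were chosen with earlier results of these data known, so their counts are descriptions and not independent support. In pregnant cows 35 of the 107 genes were lower and 7 higher in caruncular tissue, and 28 lower and 11 higher in intercaruncular tissue, with medians of -0.24 and -0.25. These counts, and those of each list below, stand beside 15.4% lower and 11.4% higher of all tested probes in caruncular and 11.1% and 9.24% in intercaruncular tissue. Under the random slide block 22 and 15 were lower, and without the cows of slides 11 and 12 45 and 36. Each gene is given by its brightest probe, and the values that follow are log2 changes with pregnancy in caruncular and then intercaruncular tissue.

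Genes of the endothelial junction and surface were lower in 14 and 12 of 28, with none higher (8 and 7 lower with the slide as a random block, 17 and 17 without the 2 cows). The largest of those named was CD93, a surface receptor of endothelial and myeloid cells (-1.54, adjusted p = 2.2e-05, and -1.53, adjusted p = 5.96e-06), whose second probe was lower too (-1.21 and -0.86). PLVAP, a protein of the diaphragms of leaky vessels (-0.79 and -0.86), the sialomucin EMCN (-0.67 and -0.61) and the guidance receptor ROBO4 (-0.81 and -0.46) were called in both tissues.

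Genes of Notch and ephrin guidance were lower in 8 and 7 of 13, with none higher (4 and 3 under the random slide block). The endothelial receptor NOTCH4 (-0.74, adjusted p = 0.000481, and -0.59, adjusted p = 0.000326), the Notch ligand JAG1 (-0.62 and -0.59), the netrin receptor UNC5B (-0.56 and -0.62) and the arterial ephrin EFNB2 (-0.51 and -0.40) were called in both tissues.

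Of 6 tested genes beside the angiopoietins and TEK, 4 were lower in caruncular and 1 in intercaruncular tissue (2 and 1 under the random slide block). TIE1, the sister receptor of TEK, was lower in both (-1.0, adjusted p = 0.000199, and -0.85, adjusted p = 0.00476). GDF2, a ligand that binds ENG (-0.37, adjusted p = 0.00594, and -0.12, adjusted p = 0.473), the phosphatase PTPRB (-0.39, adjusted p = 0.0238, and -0.26, adjusted p = 0.198) and the receptor BMPR2 (-0.18, adjusted p = 0.0482, and -0.12, adjusted p = 0.254) were called in caruncular tissue. The second probe of BMPR2 was not called and had the opposite sign (0.26 and 0.42). Of 5 other VEGF ligands and receptors 1 and 2 were lower, the co-receptor NRP1 in both tissues (-0.61 and -0.74) and the ligand VEGFB in intercaruncular tissue (-0.26, adjusted p = 0.0472).

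Endothelial transcription factors were called in 3 of 16 in caruncular tissue, all lower, and in intercaruncular tissue 1 was lower and 1 higher, shares below the 26.9% and 20.3% of all tested probes called in either direction. Under the random slide block 2 were lower in caruncular tissue and none was called in intercaruncular tissue. ETS1 was lower in both (-0.44 and -0.42), SOX7 (-0.98, adjusted p = 0.00185) and ERG (-0.43, adjusted p = 0.0482) in caruncular tissue, and KLF4 was higher in intercaruncular tissue (0.46, adjusted p = 0.00568).

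The other lists moved in both directions. Of 13 hypoxia genes 3 were higher in each tissue and 1 was lower in caruncular tissue, and under the random slide block 1 was higher in each and 1 lower in caruncular tissue. The shares called in either direction are near the 26.9% and 20.3% of all tested probes. The glucose carrier SLC2A1 (1.13 and 1.29) and the glycolytic enzyme PGK1 (0.48 and 0.36) were higher in both, CA9 in intercaruncular tissue (0.32, adjusted p = 0.0149), and NDRG1 was lower in caruncular tissue (-0.30, adjusted p = 0.0138). Of 15 other growth factors and chemokines 1 was higher and 2 lower in caruncular tissue, and 4 higher and 2 lower in intercaruncular tissue. The chemokine receptor CXCR4 was higher in both (0.75 and 0.58) and the receptor FGFR1 lower in both (-1.14 and -1.01). FGF1 was higher in intercaruncular tissue (0.75, adjusted p = 0.00705) and FGF7 lower in caruncular tissue (-1.11, adjusted p = 0.0128).

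Of 11 genes listed as inhibitors of angiogenesis 3 were higher in each tissue, and 2 were lower in caruncular and 3 in intercaruncular tissue. The 3 that were higher were CXCL10 (3.21 and 2.06), CXCL11 (2.68 and 2.03) and CXCL9 (2.59 and 2.11), which are known first as interferon-induced chemokines that attract lymphocytes. VASH2, which promotes rather than inhibits angiogenesis in many settings, was lower in both (-0.64 and -0.64), and SPARC was lower in intercaruncular tissue (-0.52, adjusted p = 0.00301).

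**Figure D5:**
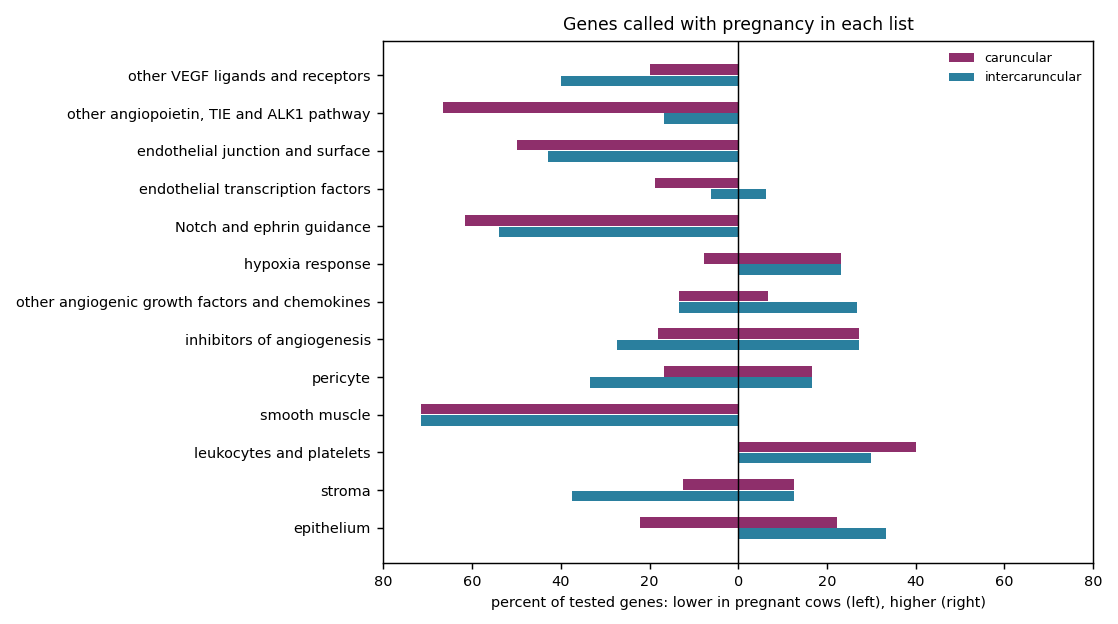
Percent of the tested genes of each list that were called (x axis, lower in pregnant cows to the left and higher to the right of 0) in caruncular and intercaruncular tissue, for lists with at least 5 tested genes. The lists of VEGF, angiopoietin, junction and surface, Notch and ephrin, and smooth muscle genes extend to the left only, and leukocytes and platelets to the right only.

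Between the tissues, 28 of the 107 genes were higher and 17 lower in caruncular tissue in cyclic cows, and 33 higher and 32 lower in pregnant cows. The shares of all tested probes were 26.8% higher and 28.6% lower in cyclic and 29.7% and 33.0% in pregnant cows, so that the shares of the 107 genes were near these or below them. The growth factor PTN had the largest difference of the named genes (1.86 in cyclic and 2.28 in pregnant cows), followed in cyclic cows by CALCRL, the receptor of adrenomedullin (1.36 and 1.62), FGF1 (1.29 and 1.08) and the transcription factor MEF2C (1.04 and 0.96). ROBO1 (0.61 and 0.79), ARNT (0.66 and 0.82), SPARC (0.75 and 1.04) and FGF2 (0.57 and 0.83) were also higher and EGLN3 lower (-0.93 and -1.05) in both states. Placental growth factor PGF was lower in both (-0.24, adjusted p = 0.036, and -0.68, adjusted p = 7.83e-07). TIE1 (-0.38), GDF2 (-0.30), SOX7 (-0.81) and DLL4 (-0.69) were lower and VEGFC (0.30) and CXCL10 (1.46) higher in pregnant cows, where cyclic cows gave no call. ROBO4 was lower in both (-0.26 and -0.60). Of the 107 genes 1 was called for a pregnancy change that differed between the tissues, beside 1.02% of all tested probes.

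In the size comparison 9 of the 107 genes were lower and 1 higher with large embryos in intercaruncular tissue, with a median of -0.18, and in caruncular tissue none was called by limma, with a median of -0.14. Of all tested probes 2.12% were lower and 3.69% called in either direction in intercaruncular tissue, and 0% were called in caruncular tissue. With 1 cow left out, the intercaruncular share called in either direction ran from 0.231% to 12.8%. By fertility class none of the 107 was called by limma in either tissue.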

How the data were processed

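RNA of caruncular and intercaruncular endometrium was measured on 48 two-colour Agilent arrays, 44 samples and 4 repeats, against a pool of all samples and without dye swaps. The authors extracted spot intensities with Agilent Feature Extraction, which subtracted background and normalized dyes by LOWESS, and the deposited log10 ratio is sample over pool per the file headers. The version of that software in the headers differs from that in the methods. The deposited series matrix holds log2 ratios of sample over pool, used as an alternative, with column medians of -0.028 to 0.059 and no centring. It matched the scanner files to within 1e-04 on every probe it lists in 40 of 48 columns.

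Each probe's value is the mean log2 ratio of its spots, outlier spots left out. The array median was subtracted, and a repeated array counts with its first as 1 replicate. The slide of a repeated sample is that of its first array. Probes well above background and at 80 units or more in at least 22 of 44 samples were tested (14690), by limma 3.58.1 in R 4.3.3 (lmFit, eBayes, Benjamini-Hochberg). Tissues were compared on within-cow differences, so the cow is the block there. On simulated data the pregnancy fit recovered 36 of 50 changes of 1.5-fold and 48 of 50 of 4-fold in caruncular tissue (14652 probes). At 1.5-fold, 29 of 50 were recovered for a pregnancy change differing between the tissues, and 26 of 50 for embryo size in each tissue. For fertility class 22 of 50 were recovered in caruncular and 35 of 50 in intercaruncular tissue. The simulated noise was independent and normal, without a slide effect.

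Array names were updated through the reference table by accession (3524 probes) or gene number (10098 probes), and a gene with several probes is given by the brightest. The members and lists were chosen with earlier results of these data known. Named are all members, from each pathway list up to 4 genes with the lowest adjusted p for pregnancy and up to 2 for tissue, and the 3 symbols most like each member. The number of cows limits the precision.

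The alternatives were uncentred values, normexp (offset 50) followed by loess, a filter in 40 of 44 samples (13500 probes) or none, the series matrix, the first or the repeat array, the methods' t-test, slide or scan as a block, the cow as a block or not, the other label as a covariate, and each pregnant cow left out. Leaving out the cows of slides 11 and 12 was chosen after the data were seen. Python 3.11.15 with pandas 2.3.3 and matplotlib 3.10.9 made tables and figures.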

Additional observations from a re-analysis of the deposited data

Results flagged for a closer look

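In 90 groups of 5 to 10 cows (9 genes, 2 tissues, 5 groups) 10 samples lay far from the rest of their group by Dixon's criterion, and chance flags about 1 in 20 groups. The pregnant cow of slide 11 accounts for 4 of the 10 and the cyclic cow of slide 12 for 2.

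In cows with a large embryo, the cow of slide 11 was high for caruncular PECAM1 (0.64, the next cow at -1.02), VWF (0.76, next -0.40) and CDH5 (0.41, next -0.15), and for intercaruncular PECAM1 (-0.32, next -1.15). In cyclic cows, the cow of slide 12 was low for CDH5 in caruncular (-0.56, next 0.11) and intercaruncular tissue (-0.12, next 0.37). The cow of slide 12 also had the highest mean of the stroma list in both tissues (1.59 and 0.88) and, in both, the lowest mean of the epithelium list among cyclic cows (-1.26 and -0.70). The part of these values in the outlying genes was not tested.

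In cows with a small embryo, 1 cow was low for intercaruncular PECAM1 (-0.82, next -0.27). In fertile cows, the same cow was low for caruncular ENG (-0.60, next -0.21) and another cow was high for intercaruncular ANGPT2 (-0.02, next -0.19). In sub-fertile cows, 1 cow was low for caruncular ANGPT1 (-1.04, next -0.25).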

How the results depend on the processing

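Of the counts of called members under alternatives, 117 stayed within 1.5 times the count reported and 19 did not. Most of the 117 are counts of 0 that stayed at 0, in comparisons where 0% to 1.02% of all tested probes were called. They therefore say little about stability. Fitting slide as a fixed effect took the pregnancy counts from 3 and 4 to 0 and 0, and fitting it as a random effect took them to 2 and 2. The share of all tested probes called was 0.395% and 0.871% with the fixed effect, and 15.5% and 6.95% with the random effect. With no replicate block the tissue counts went from 4 and 5 to 1 and 1, and the share of all tested probes called from 55.4% and 62.7% to 36.0% and 46.5%. For embryo size in intercaruncular tissue the count of 1 went to 0 with no filter, 2 with the fertility label as a covariate, 3 with slide as a fixed effect and 0 to 3 with each cow left out (3 without the cow of slide 11). In the same order, these fits called 1.49%, 4.79%, 7.39% and 0.231% to 12.8% of all tested probes. The counts for fertility class and for caruncular embryo size stayed at 0, also with each cow left out. The cow as a random replicate block changed no count of members (3 and 4 for pregnancy, 4 and 5 for tissue).

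Under slide as a fixed effect 3 called changes with pregnancy turned direction without being called: VEGFA in intercaruncular tissue (0.24), VEGFB in intercaruncular tissue (0.10) and ERG in caruncular tissue (0.14). In the cow of each state whose tissues share a slide the tissue difference turned for KDR (-0.44) and ENG (0.16) in the cyclic cow and for VEGFA (-0.07), TEK (0.08), VWF (0.30) and CDH5 (0.22) in the pregnant cow. The cause was not tested. Among 1224 member values under alternatives 43 changed sign where neither fit made a call. Each member has 1 probe, so the mean of several probes was not run. The 1-cow setting gives no count, since it has no test.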
